A study of Homo sapiens with 6 samples.

Results

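The enzymes that place and remove methyl and acetyl groups on histones were examined in cells depleted of a factor that histone mRNAs need. The 3 Dox cultures were HCT-shSLBP cells given doxycycline at 2 µg/ml, and the 3 Control cultures were the same cells without the drug. HCT-shSLBP derives from HCT116, a human colorectal carcinoma line, and carries a hairpin RNA whose name points to SLBP, the protein that binds the stem-loop ending most S phase histone mRNAs. Every culture carried the hairpin, none received doxycycline without it, and the labels do not say whether the line is 1 clone or how long the drug was given. Effects of the drug and of the hairpin therefore cannot be told apart.

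Genes were taken by symbol from probe sets (groups of array probes summarised as 1 value) that carry a single gene symbol. The symbols were those of the KMT, KDM, HDAC, SIRT, SETD, SETDB, PRMT, EZH, SUV39H, EHMT, NSD and KAT families and DOT1L, with SETD2 and KDM5D left out. The patterns matched 84 of the 22413 genes on the array. Of these, 78 encode enzymes, 42 of them writers (methyltransferases and acetyltransferases) and 36 erasers (demethylases and deacetylases). The other 6 are EZHIP, an inhibitor of the Polycomb methyltransferase complex, and 5 noncoding neighbours of enzyme genes. A further 3 probe sets with several symbols, among them those that list KMT2C and KAT14, were not used.

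Histone tails are methylated on lysines and arginines and acetylated on lysines. Methylation of histone H3 at lysine 27 by EZH1 or EZH2, in Polycomb repressive complex PRC2, and at lysine 9 by the SUV39H, EHMT and SETDB enzymes is linked to silent chromatin. Methylation at H3 lysine 4 and acetylation mark active promoters and enhancers. New histones arrive at the replication fork with little methylation, so that these marks have to be restored after each S phase, and several of the enzymes are made mainly in dividing cells.

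SLBP checked the labels: its signal was 7.38, 7.19 and 7.32 in the Dox cultures, against 8.09, 8.04 and 8.08 in the Control cultures (log2 units, as all signals here). It fell by 0.77 (SE 0.0553, limma adjusted p = 0.00322), to 58.6% of the Control signal, and an exact two-sided permutation p was 0.1, which 6 arrays in 2 equal groups cannot go below. Array medians lay between 4.12 and 4.17. Of 9 markers of colon epithelium, 8 lay above a signal of 4.52, under which 95% of 359 olfactory receptor genes lay and which serves as a yardstick of background, while CDH17 lay below it. Their summed signal was 12.66 to 12.74 in the Dox cultures and 12.67 to 12.80 in the Control cultures. None of these 9 markers passed limma's test (1 had an unadjusted p under 0.05), nor did any of 15 measured markers of fibroblasts, blood and endothelium, or liver and neural cells (also 1). Of these other markers, 3 of 5 for fibroblasts, 1 of 5 for blood and endothelium and 4 of 5 for liver and neural cells lay above 4.52. The count above that level therefore does not set colon epithelium apart.

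Of the 78 enzymes, 4 rose and 5 fell, where rising and falling mean a limma p under 0.05 after Benjamini-Hochberg adjustment over all 22413 genes. EZH1 rose to 141% of its Control signal and EZH2 fell to 79.1%, the 2 largest changes among the enzymes. SETDB2, KDM6B and KDM7A also rose, and SUV39H1, SUV39H2, KDM1A and KDM2B also fell. The shares, 5.13% risen and 6.41% fallen, compare with 2.93% and 3.27% of all genes. Dim genes were seldom called, and 75 of the 78 enzymes lay above the olfactory receptor level. Of all genes above that level 8.64% were called in either direction, against 12% of the 75 enzymes above it. An unadjusted p under 0.05 was found for 32 of the 78 enzymes, 5063 of all 22413 genes and 4233 of the 14762 genes above that level. Later counts at that unadjusted p are to be read beside these.

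**Figure D1:**
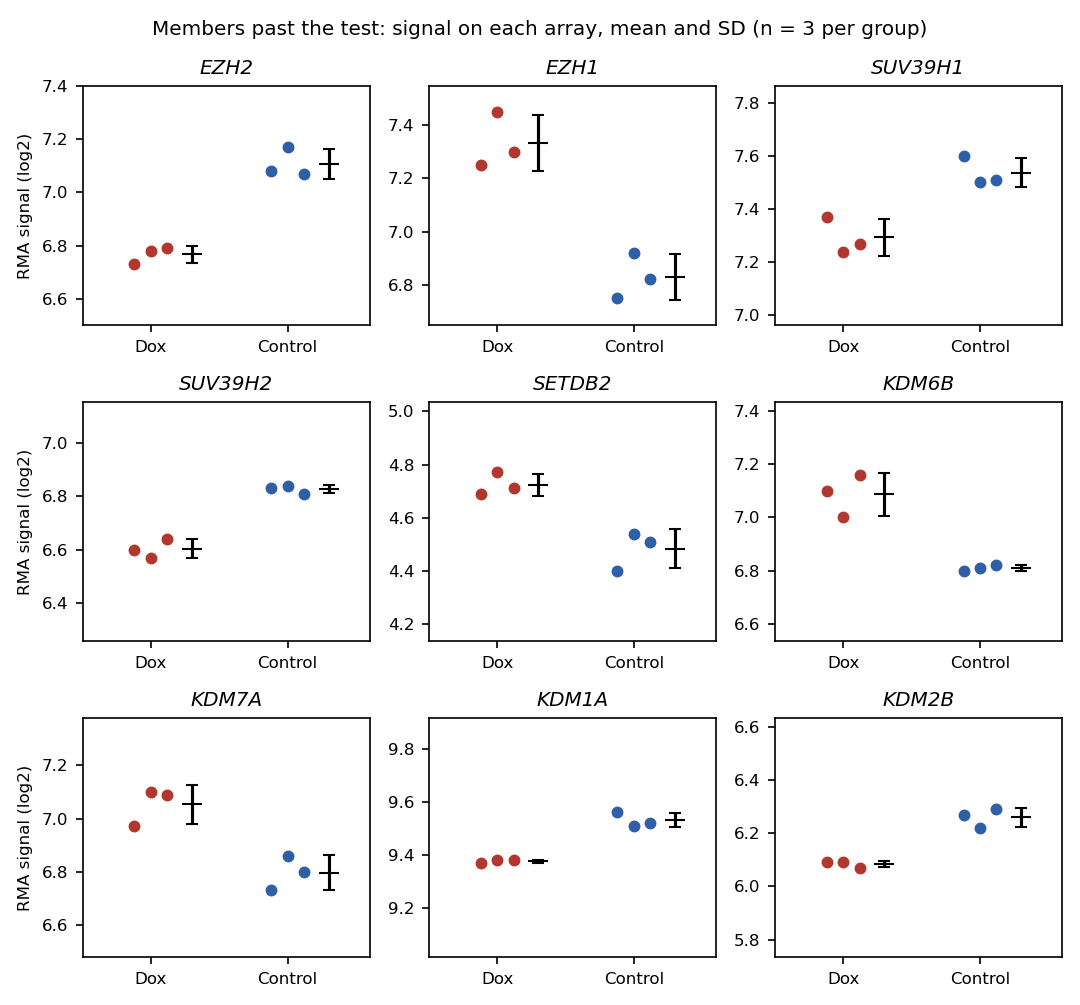
RMA signal (log2, vertical axis, each panel spanning 0.9 units) of the 9 enzymes past the test, with Dox arrays at the left and Control arrays at the right of each panel, 1 point per array and the mean with SD beside them. In every panel the 3 Dox arrays lie on one side of the 3 Control arrays, above them for EZH1, SETDB2, KDM6B and KDM7A and below them for the other panels.

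The catalytic subunits of PRC2 moved in opposite directions. EZH2, the subunit typical of dividing cells, had signals of 6.73, 6.78 and 6.79 in the Dox cultures, against 7.08, 7.17 and 7.07 in the Control cultures. EZH1, the subunit typical of resting and differentiated cells, had 7.25, 7.45 and 7.30 in the Dox cultures, against 6.75, 6.92 and 6.82 in the Control cultures. All arrays of one group thus lay on one side of all arrays of the other for both genes. EZH2 averaged 6.77 ± 0.0286 in Dox and 7.10 ± 0.0554 in Control cultures (SD, n = 3 each), a log2 change of -0.34 (SE 0.0427, limma adjusted p = 0.0103). EZH1 averaged 7.33 ± 0.104 in Dox and 6.83 ± 0.0838 in Control cultures (SD, n = 3 each), a log2 change of 0.50 (SE 0.0667, limma adjusted p = 0.0115). Taken within each array, EZH1 minus EZH2 was higher by 0.84 in the Dox cultures (SE 0.0575), a difference that the choice of a pair called in opposite directions fixes and that is given without a test, as are the paralogue differences that follow. The EZH2 call was lost without Dox replicate 3 (limma adjusted p = 0.0524), and the EZH1 call without Dox replicate 3 or Control replicate 3 (limma adjusted p of up to 0.0552).

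The promoters of the pair are shown because the genes moved apart and EZH2 is a known target of the E2F factors that drive S phase genes. They are RefSeq sequences of build GRCh38.p14, from 120 bases before to 20 bases after the annotated start. SUV39H2, described further on, is given beside them as the other fallen enzyme with a motif match. Capitals mark matches to TTTCCCGC or TTTGGCGC, an E2F type motif, and to TTTGAA, the cell cycle motif called CHR, searched on both strands. EZH2 lies at chr7:148884272-148884411 (minus strand), EZH1 at chr17:42745021-42745160 (minus strand) and SUV39H2 at chr10:14878746-14878885 (plus strand).
EZH2: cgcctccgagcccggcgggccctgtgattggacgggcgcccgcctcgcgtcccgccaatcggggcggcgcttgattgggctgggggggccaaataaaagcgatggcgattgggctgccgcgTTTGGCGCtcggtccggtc
EZH1: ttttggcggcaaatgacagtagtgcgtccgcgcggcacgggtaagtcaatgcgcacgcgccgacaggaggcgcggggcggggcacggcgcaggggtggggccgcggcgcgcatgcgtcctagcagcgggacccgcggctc
SUV39H2: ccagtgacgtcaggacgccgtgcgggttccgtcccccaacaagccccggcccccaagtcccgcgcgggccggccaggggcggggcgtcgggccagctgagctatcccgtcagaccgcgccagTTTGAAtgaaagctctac

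The E2F type match of EZH2 begins at base 2 counted from the annotated start, and the CHR match of SUV39H2 at base 3. Over 300-base promoters (250 bases before to 50 after the start), 70 of the 78 enzymes had a sequence. The E2F type motif was present in 4 of the 70 (5.71%), EZH2, NSD2, KDM1B and SIRT6, compared with 2.91% of the 15374 promoters of tested genes, 2.31% of all 27305 promoters and 11 of the 18 S phase genes with a sequence. NSD2 and KDM1B did not pass the test, with log2 changes of -0.02 and 0.01, nor did SIRT6 (-0.16). The CHR motif was present in 8 of the 70 (11.4%), compared with 12.6% of promoters of tested genes and 15.4% of all promoters. None of the 4 enzymes that rose had an exact match to either motif in this window, and near matches were not counted. Of the 5 that fell, 1 (EZH2) had the E2F type motif and 1 (SUV39H2) the CHR motif, while SUV39H1, KDM1A and KDM2B had neither. Counts this small do not set the risen enzymes apart from the fallen.

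S phase genes gave the largest median change among the 9 lists read beside the enzymes. The lists were chosen with earlier results of these data known, so this ranking is a description only. Of all genes 3.27% fell, and of genes above the olfactory receptor level 4.57%. Of 21 measured genes, among them the helicase subunit MCM6 (-0.51), the licensing factor CDC6 (-0.53), the cyclin CCNE2 (-0.66) and the polymerase subunit POLA1 (-0.49), 19 fell and none rose, with a median log2 change of -0.421 (CDT1 at -0.28 and GINS3 at -0.21 did not pass). The part of a changed share of cells in S phase in the enzyme values was not tested, and fewer cells of a kind cannot be told apart from less RNA per cell in these samples.

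The other lysine 9 and lysine 27 enzymes were mixed. SUV39H1 and SUV39H2, which trimethylate H3 lysine 9 in constitutive heterochromatin, both fell. SUV39H1 had 7.37, 7.24 and 7.27 in the Dox cultures, against 7.60, 7.50 and 7.51 in the Control cultures, a log2 change of -0.25 (SE 0.0509, limma adjusted p = 0.0383). SUV39H2 had 6.60, 6.57 and 6.64 in the Dox cultures, against 6.83, 6.84 and 6.81 in the Control cultures, a log2 change of -0.22 (SE 0.0367, limma adjusted p = 0.0201). The groups did not overlap for either gene, and the signals left were 84.3% and 85.6% of Control. SETDB2, a relative of the lysine 9 methyltransferase SETDB1, went the other way, with 4.69, 4.77 and 4.71 in the Dox cultures, against 4.40, 4.54 and 4.51 in the Control cultures. Its log2 change was 0.24 (SE 0.0492, limma adjusted p = 0.0359), from a signal close to the olfactory receptor level. SETDB1 itself was at 0.08 (limma adjusted p = 0.217), and SETDB2 minus SETDB1 was higher by 0.16 in the Dox cultures. SUV39H1 minus SUV39H2 moved by -0.02. EHMT1 and EHMT2, which form the complex that dimethylates lysine 9, were at -0.06 and -0.10 and did not pass, and the 7 probe sets of EHMT2 ran from -0.10 to -0.09. Both SUV39H calls held without Dox replicate 1 and were lost without any other array (limma adjusted p of up to 0.13 and 0.0771), and the SETDB2 call was lost without each array in turn (up to 0.111).

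Methyltransferases of the remaining sites did not pass the test. Of 6 enzymes of H3 lysine 4, none passed limma's test, with 2 at an unadjusted p under 0.05. KMT2A, the mixed lineage leukaemia methyltransferase, was nearest, with 7.92, 8.0 and 8.05 in the Dox cultures, against 7.67, 7.80 and 7.83 in the Control cultures (log2 change 0.22, limma adjusted p = 0.0632). SETD1B was at -0.10 and KMT2B at 0.09, while KMT2D, SETD1A and SETD7 lay between -0.05 and 0.01. Of the 3 NSD enzymes of H3 lysine 36, none passed, with 1 at an unadjusted p under 0.05: NSD3 was at 0.12, NSD2 at -0.02 and NSD1 at -0.08. DOT1L, the lysine 79 methyltransferase, was at -0.06 (95% confidence interval -0.16 to 0.04). Among the 3 enzymes of H4 lysine 20, 2 had an unadjusted p under 0.05 and none passed. KMT5A, which monomethylates lysine 20 and whose protein is degraded in S phase, had a log2 change of -0.12 (limma adjusted p = 0.113), KMT5B of 0.11 and KMT5C of 0.00. KMT2E (0.18) and SETD5 (0.16), which have no settled histone methyltransferase activity, did not pass, and SETD3, SETD4, SETD6 and SETD9 lay between -0.05 and -0.03.

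None of 8 arginine methyltransferases passed limma's test, with 5 at an unadjusted p under 0.05, beside 5063 of all 22413 genes. Lower means in the Dox cultures were found for 6 of the 8, and for 58.2% of all genes. The median log2 change of the 8 was -0.121, against -0.019 for all genes. CARM1, an arginine methyltransferase that the name patterns do not match, is not among the 8 and was at 0.01 (limma adjusted p = 0.922). PRMT5, which makes symmetric dimethylarginine on histones and splicing proteins, had 8.95, 8.90 and 8.91 in the Dox cultures, against 9.10, 9.05 and 9.08 in the Control cultures. Every Dox array was below every Control array, as for 16.7% of all genes. The change of -0.16 (SE 0.0366) did not pass (limma adjusted p = 0.0524). Its partner WDR77, without which PRMT5 has little activity, fell by 0.34 on the log2 scale (limma adjusted p = 0.0172), a call lost without Dox replicate 2 or 3 and without Control replicate 1 or 3 (up to 0.0728). The other PRMT5 partners, CLNS1A, RIOK1 and COPRS, did not pass. PRMT1, the main asymmetric arginine methyltransferase, was at -0.13 (limma adjusted p = 0.205), PRMT3, whose best known substrate is a ribosomal protein, at -0.17 (0.0693), PRMT7 at -0.19 (0.146) and PRMT6 at -0.12 (0.48). PRMT9, known for methylating a splicing factor, was at 0.17 (limma adjusted p = 0.0535), with 5.90, 6.0 and 5.96 in the Dox cultures, against 5.75, 5.81 and 5.78 in the Control cultures. PRMT2 (0.03) and PRMT8 (-0.01, below the olfactory receptor level) showed small differences.

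Acetyltransferases showed small differences in both directions. None of the 7 passed limma's test, with 2 at an unadjusted p under 0.05. KAT2B, also called PCAF, had 5.81, 5.83 and 5.90 in the Dox cultures, against 6.0, 6.01 and 6.01 in the Control cultures (log2 change -0.16, limma adjusted p = 0.0612), while its close relative KAT2A was at 0.09 (0.343). Of the MYST family, KAT6B was at 0.18 (limma adjusted p = 0.0699), with every Dox array above every Control array, as for 12.5% of all genes. KAT6A was at 0.05, KAT7, which acetylates histones at replication origins, at 0.06, KAT8 at 0.06 and KAT5 at -0.05.

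**Figure D2:**
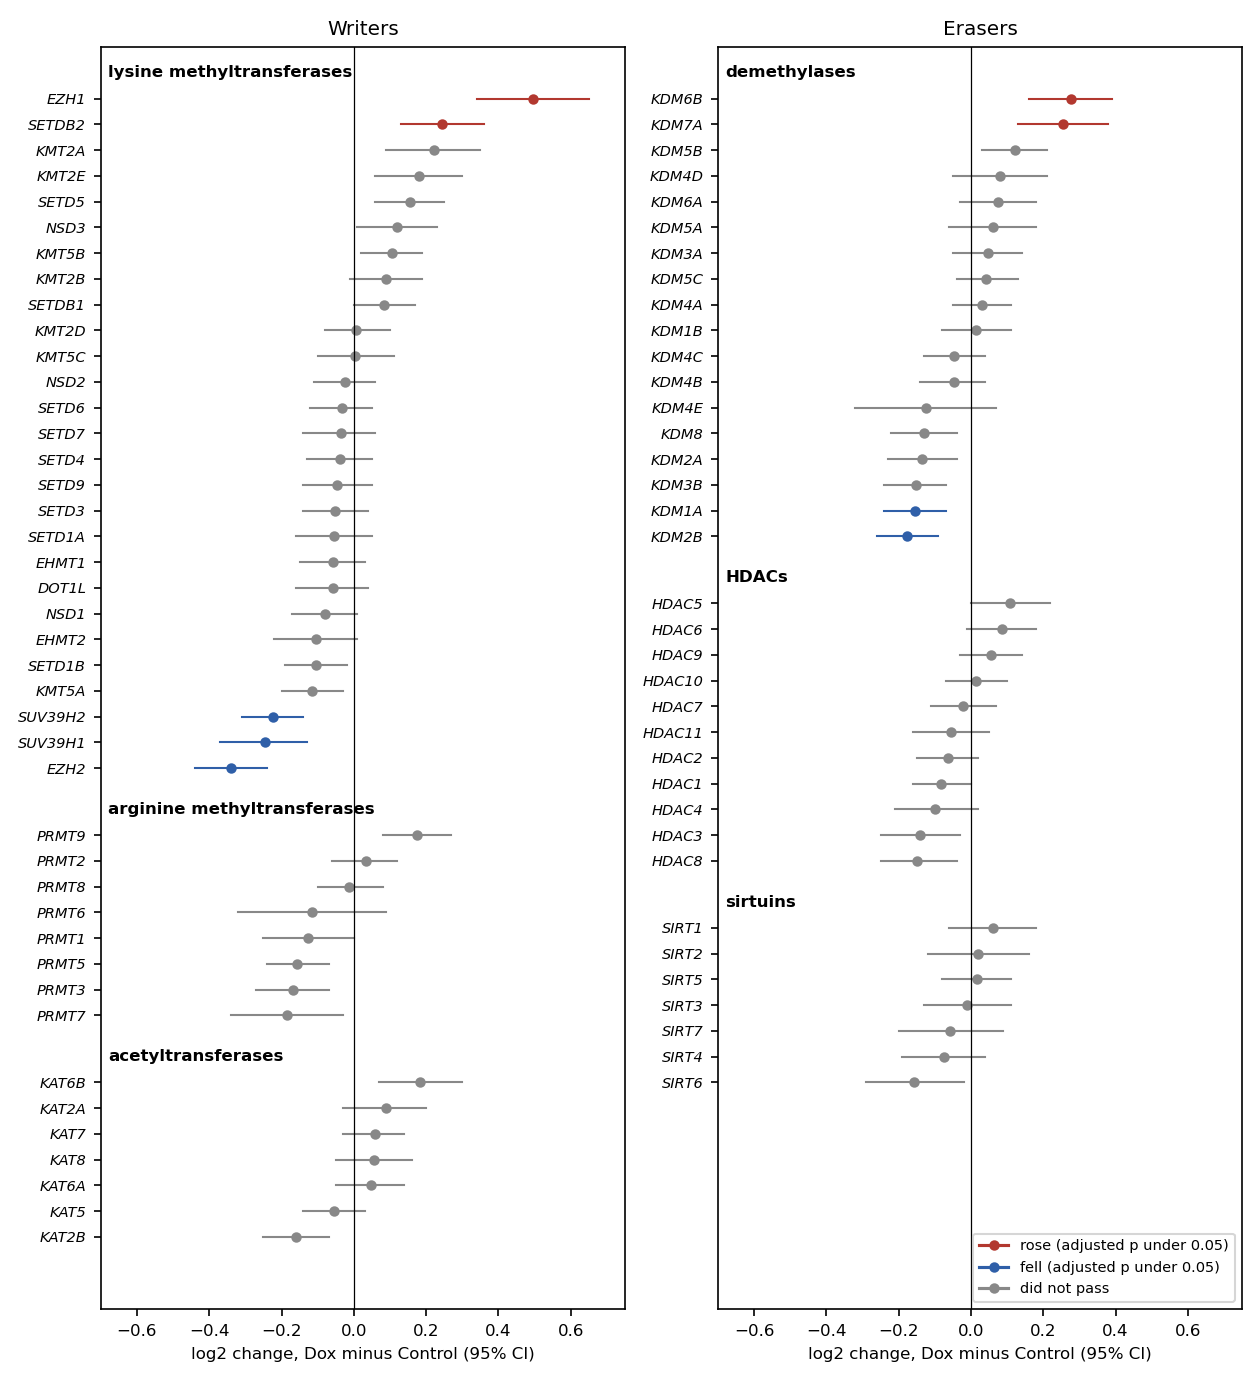
Log2 change, Dox minus Control (horizontal axis), of each of the 42 writers (left panel) and 36 erasers (right panel), sorted within each class, with limma's 95% confidence interval as a line. Coloured points passed the test, and these are methyltransferases or demethylases, while acetyltransferases, HDACs and sirtuins hold none.

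Among 18 demethylases, 2 rose and 2 fell (11.1% each), beside 2.93% of all genes risen and 3.27% fallen. Of genes above the olfactory receptor level, 8.64% were called in either direction. KDM6B, also called JMJD3, which removes methyl groups from H3 lysine 27 and is induced by many stimuli, had 7.10, 7.0 and 7.16 in the Dox cultures, against 6.80, 6.81 and 6.82 in the Control cultures, a log2 change of 0.28 (SE 0.0489, limma adjusted p = 0.0244). KDM7A, which acts on H3 lysines 9 and 27, had 6.97, 7.10 and 7.09 in the Dox cultures, against 6.73, 6.86 and 6.80 in the Control cultures, a log2 change of 0.25 (SE 0.0548, limma adjusted p = 0.043). Each of the 3 Dox arrays was above each Control array for both genes. KDM6A, the other lysine 27 demethylase and a gene of the X chromosome, was at 0.07 (95% confidence interval -0.03 to 0.18) and its groups overlapped. KDM6B minus KDM6A, within arrays, was higher by 0.20 in the Dox cultures (SE 0.0786). The KDM6B call held only without Dox replicate 2 and the KDM7A call only without Dox replicate 1, when 1 array was left out (limma adjusted p of up to 0.09 and 0.141 otherwise). KDM7A also lost its call with median centring of the arrays.

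KDM1A and KDM2B fell by small amounts. KDM1A, also called LSD1, the first histone demethylase described, removes methyl groups from H3 lysine 4. It had 9.37, 9.38 and 9.38 in the Dox cultures, against 9.56, 9.51 and 9.52 in the Control cultures, a log2 change of -0.16 (SE 0.0346, limma adjusted p = 0.0464). KDM2B, which acts on H3 lysine 36 and recruits a Polycomb complex to CpG islands, had 6.09, 6.09 and 6.07 in the Dox cultures, against 6.27, 6.22 and 6.29 in the Control cultures, a log2 change of -0.18 (SE 0.0367, limma adjusted p = 0.0388). Their Dox arrays differed among themselves by no more than 0.02. Their paralogues did not pass, KDM1B at 0.01 and KDM2A at -0.14 (limma adjusted p = 0.0918). Within arrays KDM1A minus KDM1B moved by -0.17 and KDM2B minus KDM2A by -0.04 in the Dox cultures. Both calls were lost without each array in turn (limma adjusted p of up to 0.155 and 0.142) and with median centring, and that of KDM1A also with repeated quantile normalization.

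The other demethylases did not pass. KDM3B, a lysine 9 demethylase, was nearest at -0.15 (limma adjusted p = 0.0536), while KDM3A, known as a hypoxia-induced gene, was at 0.05. Of the lysine 4 demethylases of the KDM5 family, KDM5B was at 0.12 (limma adjusted p = 0.122), KDM5A at 0.06 and KDM5C at 0.04. KDM4A, KDM4B and KDM4C, which act on lysines 9 and 36, lay between -0.05 and 0.03, and KDM4D was at 0.08. KDM8, whose histone activity is disputed, was at -0.13 (limma adjusted p = 0.108). KDM4E, at -0.12, lay below the olfactory receptor level, with signals of 2.49 to 2.88.

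None of the 11 classical deacetylases passed limma's test, with 3 at an unadjusted p under 0.05. The 4 class I enzymes all had lower signals on every Dox array than on any Control array. Their log2 changes were -0.15 (HDAC8, limma adjusted p = 0.103), -0.14 (HDAC3, 0.123), -0.08 (HDAC1, 0.205) and -0.06 (HDAC2, 0.37). Every Dox array was below every Control array for 16.7% of all genes, 20.7% of genes above the olfactory receptor level and 30.8% of the 78 enzymes. HDAC1 had 8.70, 8.68 and 8.66 in the Dox cultures, against 8.76, 8.76 and 8.76 in the Control cultures. The class IIa enzymes HDAC4, HDAC5, HDAC7 and HDAC9, which shuttle between nucleus and cytoplasm, ran from -0.10 to 0.11, and HDAC9 lay below the olfactory receptor level. HDAC6, the tubulin deacetylase, was at 0.09, HDAC10 at 0.01 and HDAC11 at -0.05.

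The 7 sirtuins, deacylases that consume NAD, gave no call with limma, and 1 had an unadjusted p under 0.05. That gene was SIRT6, a chromatin deacetylase, with 6.88, 6.73 and 6.91 in the Dox cultures, against 7.05, 6.95 and 6.99 in the Control cultures (log2 change -0.16, limma adjusted p = 0.155). SIRT1 was at 0.06 (95% confidence interval -0.06 to 0.18), the nucleolar SIRT7 at -0.06, the cytoplasmic SIRT2 at 0.02, and the mitochondrial SIRT3, SIRT4 and SIRT5 between -0.07 and 0.02.

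Writers and erasers were set side by side as groups, as a description without a test. Of 42 writers, 2 rose, 3 fell and 24 had lower means. Of 36 erasers, 2 rose, 2 fell and 19 had lower means. Lower means made up 57.1% of writers and 52.8% of erasers, beside 58.2% of all genes, of which 2.93% rose and 3.27% fell. The median log2 change was -0.035 for writers and -0.016 for erasers, beside -0.019 for all genes. Without enzymes of mainly non-histone substrates it was -0.030 for writers and -0.034 for erasers, so that the order of the 2 kinds was reversed. The median over writers, each gene taken relative to its Control mean, was -0.021, -0.036 and -0.011 on the Dox arrays and -0.002, 0.006 and -0.007 on the Control arrays. For erasers it was -0.003, -0.038 and -0.023 on the Dox arrays and 0.008, -0.016 and 0.004 on the Control arrays. For all genes it was 0.000, -0.037 and -0.015 on the Dox arrays, lowest on Dox replicate 2 as for writers and erasers. The medians of the 2 kinds thus differed by about as much as arrays of 1 group did. The middle of the writers' changes ran from -0.10 to 0.09 (quartiles) and that of the erasers' from -0.11 to 0.06, compared with -0.08 to 0.05 for all genes.

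**Figure D3:**
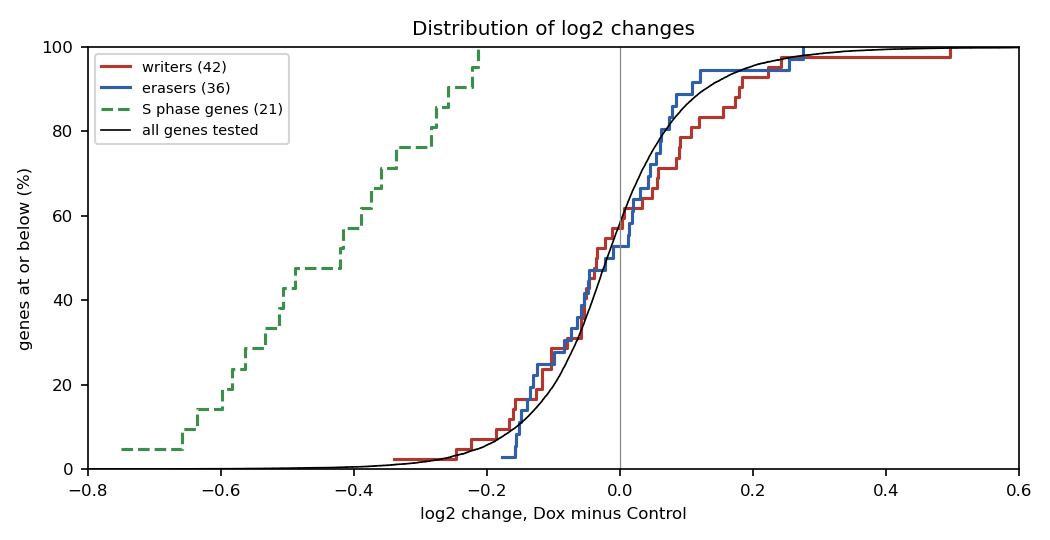
Share of genes (vertical axis, %) at or below each log2 change, Dox minus Control (horizontal axis), for 42 writers, 36 erasers, 21 S phase genes and all genes tested. The curves of writers and erasers lie close to each other and to the curve of all genes, with medians of -0.035, -0.016 and -0.019. The S phase genes, a list chosen with earlier results of these data known, lie to the left, with a median of -0.421.

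Arrays that separated without overlap were more frequent among the enzymes than calls. For 17 enzymes (21.8%) every Dox array was above every Control array, compared with 12.5% of all genes, and for 24 (30.8%) every Dox array was below, compared with 16.7% of all genes. Among genes above the olfactory receptor level these shares were 16.4% and 20.7%. The 69 enzymes that did not pass had log2 changes between -0.19 and 0.22.

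Calls are given by site as counts without a test between sites, beside 6.19% of all genes and 8.64% of genes above the olfactory receptor level called in either direction. At H3 lysine 27 EZH2 fell, EZH1, KDM6B and KDM7A rose, and KDM6A did not pass, so that 4 of 5 enzymes were called. At H3 lysine 9, 3 of 6 writers were called (SUV39H1, SUV39H2 and SETDB2) and 1 of 8 erasers, KDM7A, which counts at both sites. At H3 lysine 4, KDM1A was the single call among 6 writers and 5 erasers, and at H3 lysine 36 KDM2B was the single call among 3 writers and 5 erasers. Each of these calls was lost on leaving out at least 1 array. Those of SUV39H1, SUV39H2, KDM6B and KDM7A were each kept in only 1 of the 6 such fits. Those of SETDB2, KDM1A and KDM2B were lost on leaving out any 1 array.

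Enzymes and partners outside these families were read from lists. Their calls stand beside 6.19% of all genes and 8.64% of genes above the olfactory receptor level called in either direction. Of 6 further acetyltransferases measured, HAT1, which acetylates newly made histone H4 before its deposition, fell, with 7.10, 7.15 and 7.13 in the Dox cultures, against 7.33, 7.37 and 7.35 in the Control cultures (log2 change -0.22, SE 0.0353, limma adjusted p = 0.0187). The HAT1 call was lost without Dox replicate 3 or any 1 Control array (up to 0.0797). Of 13 further methyltransferases and demethylases, SETMAR, a fusion of a SET domain and a transposase, fell (-0.36, limma adjusted p = 0.00763) and JMJD1C, a relative of KDM3A, rose (0.26, limma adjusted p = 0.0387). The SETMAR call held without each array in turn, and the JMJD1C call only without Dox replicate 1 (otherwise up to 0.127), and not with median centring.

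Of 10 partners of PRC2, only JARID2, which helps target the complex, passed and rose (0.23, limma adjusted p = 0.0274). The core subunits EED and SUZ12 were at -0.14 (limma adjusted p = 0.0754) and -0.15 (0.102), and the histone-binding RBBP4 and RBBP7 at -0.03 and -0.05. Of 10 partners of the KMT2 complexes, HCFC1 fell (-0.18, limma adjusted p = 0.0359), and 9 of the 10 had lower means, as had 58.2% of all genes. Both calls were lost without each array in turn (up to 0.104 for JARID2 and 0.124 for HCFC1). Of 35 partners in acetyltransferase complexes, SUPT7L, a subunit of the SAGA coactivator, rose (0.24, limma adjusted p = 0.0243), a call kept only without Dox replicate 2 (otherwise up to 0.096).

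Of 21 measured partners in deacetylase complexes, 4 fell (19%) and none rose, where 3.27% of all genes and 4.57% of genes above the olfactory receptor level fell. Of the 21, 20 lay above that level and 15 had lower means (71.4%, against 58.2% of all genes). They were SAP30 (-0.26, limma adjusted p = 0.0114) and BRMS1 (-0.28, 0.0383) of the SIN3 complex, MTA2 (-0.20, 0.0404) of the NuRD complex and DNTTIP1 (-0.22, 0.028) of the mitotic deacetylase complex. The median log2 change of the 21 was -0.040, beside -0.019 for all genes. SAP30 lost its call without Dox replicate 3 or Control replicate 1 or 3 (up to 0.059), and with the mean of its 2 probe sets, and the other 3 kept theirs only without Dox replicate 1 (otherwise up to 0.136). MTA2 also lost it with repeated quantile normalization.

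**Figure D4:**
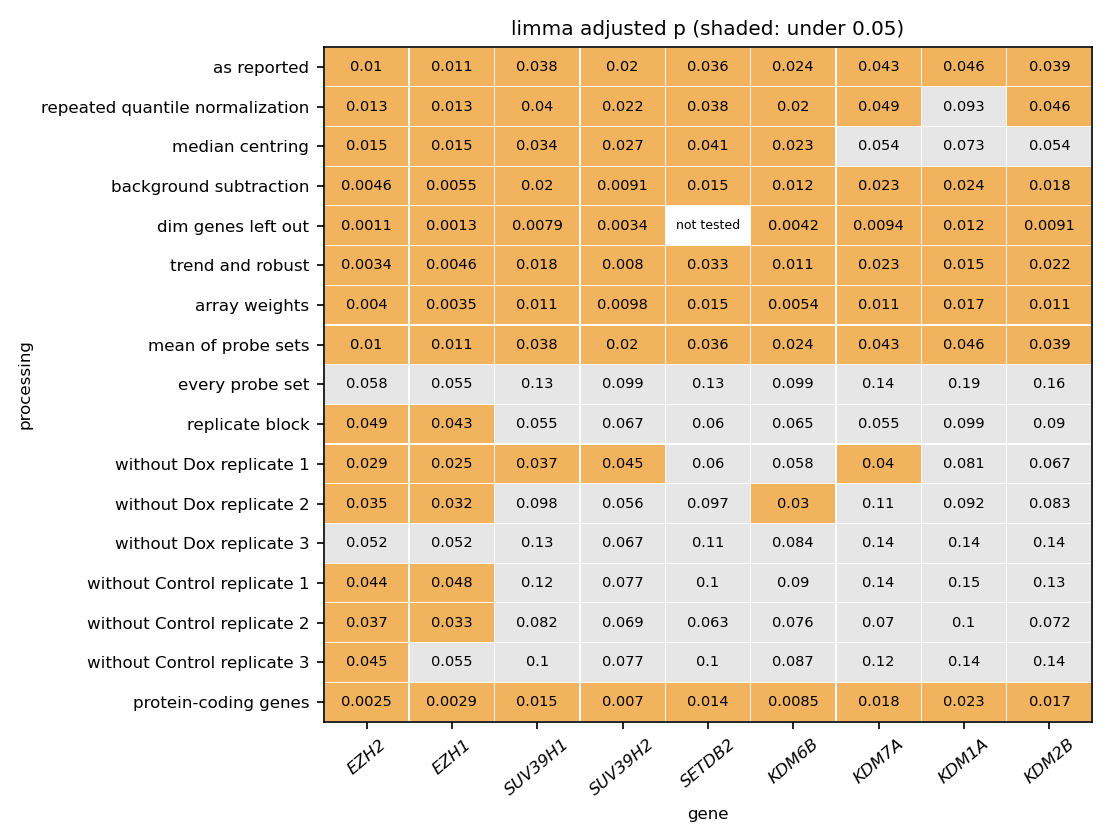
Limma adjusted p of the 9 called enzymes (columns) with each way of processing the values (rows), shaded where it is under 0.05. EZH2 and EZH1 kept their calls in the most rows. No enzyme passed when every probe set was tested on its own or without Dox replicate 3, where EZH2 had 0.0579 and 0.0524.

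Calls were lost as arrays were left out, while the changes moved little. Without Dox replicate 3 none of the 78 enzymes passed limma's test, and 24 had an unadjusted p under 0.05. The log2 changes there were -0.35 for EZH2, 0.51 for EZH1, -0.24 for SUV39H1, -0.24 for SUV39H2, 0.25 for SETDB2, 0.24 for KDM6B, 0.24 for KDM7A, -0.16 for KDM1A and -0.17 for KDM2B. Without Control replicate 3 EZH2 alone passed, and without Control replicate 1 or 2 the pair EZH1 and EZH2. Over the whole array the genes called also dropped, to 63 risen and 69 fallen without Dox replicate 3, compared with 656 and 732 with all arrays. Without Dox replicate 2 the calls were EZH1, KDM6B and EZH2, and without Dox replicate 1 EZH1, KDM7A, SUV39H1, SUV39H2 and EZH2, with KAT6B in addition. The direction of the 9 called enzymes was the same in each of these fits. Groups without overlap fix that outcome in advance. Among enzymes that did not pass, KMT2A, SETD5, PRMT5, PRMT9 and KDM3B were called with each of 5 alternatives (background subtraction, dim genes left out, trend and robust eBayes, array weights, and protein-coding genes alone), and KAT6B with the same 5. The 5 noncoding neighbours, EHMT2-AS1, HDAC11-AS1, KDM4A-AS1, KDM7A-DT and PRMT5-AS1, gave no call with limma and none had an unadjusted p under 0.05, with log2 changes between -0.14 and 0.04, and their arrays overlapped. KDM7A-DT, which is transcribed away from the KDM7A promoter, was at -0.14 while KDM7A rose. EZHIP was at -0.10 (limma adjusted p = 0.601).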

How the data were processed

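RNA from 6 cultures was measured on 1 Affymetrix array each (3 Dox, 3 Control, grouped by sample title). The authors deposited 1 log2 value per probe set, and RMA is the method named per the submitters' processing notes. RMA subtracts background, equalises array distributions and summarises probes. The software version, build and annotation are not given in the sources used here. Of 70523 probe sets, 23784 carried 1 gene symbol in the platform annotation, 1540 several and 45199 none. RefSeq's gene table replaced 252 older symbols, none of them an enzyme's. The probe set with the highest mean was kept for each of 22413 genes. Members and lists were chosen with earlier results of these data known.

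The test was limma (3.58.1, in R 4.3.3) with treatment as the only term, and with p-values adjusted by Benjamini-Hochberg over all genes. The procedure was run on simulated data with independent noise for each gene. Unequal array quality and the leaving out of arrays were not simulated. Of 136 genes in 9 partner lists, 127 were measured. Named genes are those past the threshold and, per class, those of smallest adjusted p and highest signal, with paralogues of called enzymes and, per list, up to 4 genes. Other enzymes are named to account for all members. The number of arrays limits the precision. Alternatives were repeated quantile normalization, median centring, background subtraction (5th percentile, floor 16), dim genes left out (mean under 5.58), trend and robust eBayes, array weights, other probe set rules, a replicate block, single arrays left out, protein-coding genes only, and narrower membership. Promoters came from RefSeq (GRCh38.p14). Python 3.11.15, pandas 2.3.3 and matplotlib 3.10.9 were used.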

Additional observations from a re-analysis of the deposited data

How the results depend on the processing

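With 4 enzymes risen and 5 fallen as reported (writers 2 and 3, erasers 2 and 2), the counts depended on the processing, and the cause was not tested. Counts are given as risen and fallen. They were 8 and 9 with background subtraction or with trend and robust eBayes (writers 6 and 6 in both), 9 and 12 without dim genes (writers 6 and 7, 5 erasers fallen), 9 and 11 with array weights (writers 7 and 5, 6 erasers fallen) and 9 and 9 among protein-coding genes (writers 7 and 6). Background subtraction, the dim filter and the protein-coding fit test fewer genes. With median centring 3 enzymes fell (1 eraser rose, 0 fell), and with repeated quantile normalization 1 eraser fell. Testing each of the 70523 probe sets gave limma counts of 0 and 0 for enzymes, writers and erasers (26 enzymes at an unadjusted p under 0.05). With the replicate block they were 1 and 1, EZH1 and EZH2, both writers, with 0 erasers in either direction. The labels do not say whether same-numbered arrays belong together. Deviations of such arrays from their group means correlated at r = 0.03, -0.001 and -0.016 across genes, and no array correlated best with its own number. Deviations within a group of 3 are bound to balance, so these values do not settle whether the cultures were paired. With 1 array left out, 0 to 3 enzymes rose and 0 to 3 fell (writers 0 to 2 and 0 to 3, erasers 0 to 1 and 0).

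The median log2 change of writers was -0.016 with array weights, -0.030 without enzymes of mainly non-histone substrates, and -0.033 to -0.024 with 1 array left out. That of erasers was 0.013 without dim genes, -0.034 without enzymes of mainly non-histone substrates, and -0.039 to -0.002 with 1 array left out. Across all genes called in these fits the number was 1511 risen and 1714 fallen with array weights, 1156 and 1413 without dim genes, 1025 and 1137 with background subtraction, 947 and 1096 with trend and robust eBayes, 909 and 1180 among protein-coding genes, 157 and 174 with the replicate block, and 65 and 64 with every probe set tested. The SLBP log2 change was -0.81 to -0.72 with 1 array left out, and SLBP kept its call in each fit. No called enzyme changed direction in any fit, which groups without overlap fix in advance where 1 array is left out. Sign changes with 1 array left out were seen in 8 enzymes that did not pass: KMT2D (-0.01 to 0.03), KMT5C (-0.03 to 0.02, and -0.01 with array weights), PRMT8 (-0.03 to 0.01), KDM1B (-0.01 to 0.04), HDAC7 (-0.04 to 0.0001), HDAC10 (-0.001 to 0.03), SIRT2 (-0.03 to 0.06) and SIRT3 (-0.05 to 0.02). SETDB2 was not tested without dim genes. Dox replicate 3 had the highest array weight, 2.964, and Dox replicate 2 the lowest, 0.478.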

Other observations

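Genes that supply the cofactors of these enzymes were also measured, beside 2.93% of all genes risen and 3.27% fallen. Of 7, ACLY, ATP citrate lyase, which makes the acetyl-CoA used in histone acetylation, fell, with 9.59, 9.42 and 9.57 in the Dox cultures, against 9.85, 9.75 and 9.84 in the Control cultures (log2 change -0.29, SE 0.0572, limma adjusted p = 0.033). The call held only without Dox replicate 1 when 1 array was left out (otherwise limma adjusted p of up to 0.117). ACSS2, which makes acetyl-CoA from acetate, was at 0.11 and did not pass (limma adjusted p = 0.176). MAT2A, which makes the methyl donor S-adenosylmethionine, was at -0.13 (limma adjusted p = 0.137), and its regulatory partner MAT2B at -0.04. NAMPT, which feeds the NAD that sirtuins consume, was at 0.13 (limma adjusted p = 0.191).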
